A study of Rattus norvegicus with 6 samples.

Results

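Immediate early genes are genes whose transcripts appear quickly after a stimulus, without new protein synthesis, and which include the first genes to respond when a tissue is handled, cut or stressed. 32 such genes were followed in the renal cortex, the outer layer of the kidney with the glomeruli and most of the proximal and distal tubule, of male Sprague-Dawley rats (Crl:CD(SD), an outbred stock bought at 5 weeks of age). The vehicle group was 3 rats given corn oil for 4 weeks. The TCEP group was 3 rats given the flame retardant tris(2-chloroethyl)phosphate at 400 mg/kg/day for 4 weeks. Each rat gave 1 Agilent 1-colour array made from 0.2 ug of total RNA. The members were a named list of genes, found through the accessions of the array's probes, with the brightest probe standing for each gene. Of the 32, 30 had a named probe, among 15284 genes with one, and 26 were among the 11804 genes tested, whose probe was well above background on every array of at least 1 group.

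Signals that reach a cell surface, among them growth factors, stretch and stress, pass through MAP kinases to factors already present in the cell, such as serum response factor with its Elk partners and CREB. These switch on a first set of genes. The Fos and Jun proteins pair to form the AP-1 transcription factor, EGR, KLF and NR4A proteins are further transcription factors, and Zfp36 and the dual-specificity phosphatases end the response by degrading messages and by removing phosphate from MAP kinases. In kidney these genes are known to respond to ischaemia and to the events of tissue collection. Time of day, anaesthesia, and the order and duration of dissection are not given in the sources used here.

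The sequences before the gene starts were searched for entry points of this pathway, in short windows and only for part of the genes. They were taken from the RefSeq promoter table of build GRCr8, from 250 bases before to 50 after the annotated start (position 0), which held 21 of the 32 genes. Fos and Jun were among the genes without a window, so their sequences were not searched. The 4 windows shown belong to genes on which the results below turn: Egr1 and Zfp36, whose levels had the same order over the arrays, Dusp5, higher on every TCEP array, and Dusp1. Capitals mark the motif matches. The windows lie at chr18:26736828-26737127 on the plus strand (Egr1), chr1:92799059-92799358 on the minus strand (Zfp36), chr1:262543524-262543823 on the plus strand (Dusp5) and chr10:17184603-17184902 on the plus strand (Dusp1).
Egr1: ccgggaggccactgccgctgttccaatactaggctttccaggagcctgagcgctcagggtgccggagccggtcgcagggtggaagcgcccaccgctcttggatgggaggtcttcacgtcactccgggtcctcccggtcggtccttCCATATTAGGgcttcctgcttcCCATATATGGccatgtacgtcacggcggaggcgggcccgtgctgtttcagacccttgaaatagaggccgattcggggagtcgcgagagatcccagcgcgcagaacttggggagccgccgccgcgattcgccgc
Zfp36: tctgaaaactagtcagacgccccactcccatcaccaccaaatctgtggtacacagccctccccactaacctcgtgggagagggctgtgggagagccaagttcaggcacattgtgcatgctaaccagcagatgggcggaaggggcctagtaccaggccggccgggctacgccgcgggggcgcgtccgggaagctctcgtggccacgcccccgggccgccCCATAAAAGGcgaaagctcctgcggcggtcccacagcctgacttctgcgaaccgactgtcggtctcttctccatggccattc
Dusp5: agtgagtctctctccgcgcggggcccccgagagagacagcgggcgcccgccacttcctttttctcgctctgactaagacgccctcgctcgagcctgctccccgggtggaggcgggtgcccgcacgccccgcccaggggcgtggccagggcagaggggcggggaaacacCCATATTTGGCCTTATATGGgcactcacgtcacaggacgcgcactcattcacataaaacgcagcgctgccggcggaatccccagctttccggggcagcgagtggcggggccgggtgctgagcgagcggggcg
Dusp1: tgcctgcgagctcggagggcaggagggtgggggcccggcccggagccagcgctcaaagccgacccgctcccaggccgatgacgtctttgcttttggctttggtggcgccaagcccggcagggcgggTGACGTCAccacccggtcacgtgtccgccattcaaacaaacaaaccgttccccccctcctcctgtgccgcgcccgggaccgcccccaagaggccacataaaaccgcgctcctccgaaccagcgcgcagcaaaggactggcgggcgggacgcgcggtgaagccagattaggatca

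A CArG box, the site of serum response factor (CC, then 6 bases that are A or T, then GG), was matched at positions -105 to -96 and -83 to -74 of Egr1, at -32 to -23 of Zfp36 and at -82 to -73 and -72 to -63 of Dusp5, where the pair lies end to end. Dusp1 held a cyclic AMP response element (TGACGTCA, the site of CREB) at -124 to -117. Both strands were searched. Among the 21 windows 5 held a CArG box (23.8%) and 4 the cyclic AMP response element (19.0%), against 1.64% and 1.83% of all 33469 windows of the table. The EGR motif GCGTGGGCG was matched in 2 of the 21 (9.52%, against 0.544% of all). The AP-1 motif TGANTCA and the heat shock element (GAA, TTC and GAA with 2 bases between them) were matched in 0 of the 21, against 7.33% and 0.798% of all. With only 21 windows, 0 matches cannot tell a lower share from these. Hspa1a was the only heat shock gene among the 21, and an element outside its window would be missed. No motif match in the 4 windows overlapped another. A match describes the letters and not a bound site.

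**Figure D1:**
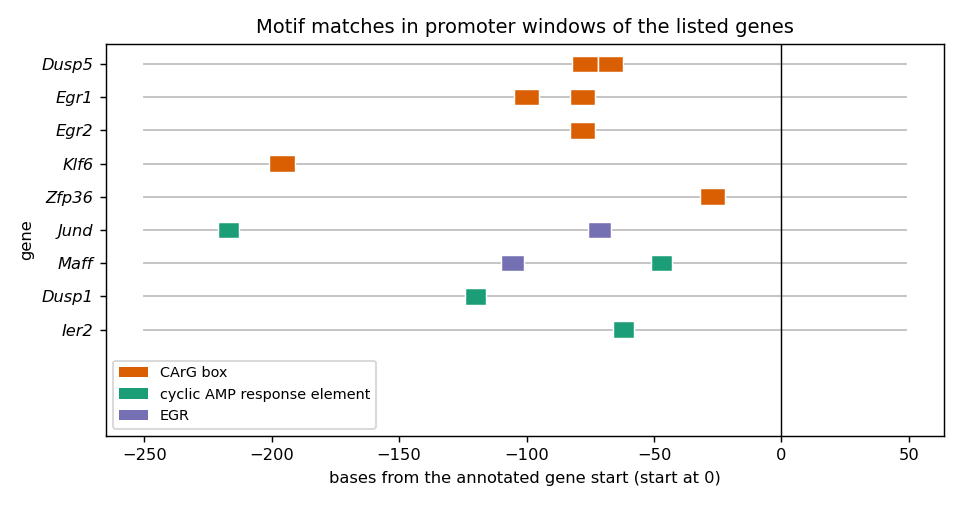
Motif matches in the promoter windows of the 9 listed genes that have one, drawn by distance in bases from the annotated gene start (grey lines are the windows, and coloured blocks the matches to 3 motifs). CArG boxes lie at -105 to -63 in Egr1, Egr2 and Dusp5, nearer the start in Zfp36 and farther from it in Klf6.

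A level below is the log2 of a probe's processed signal after division by its array's 75th percentile, which was 966 to 1078 intensity units. A difference is the TCEP mean less the vehicle mean of these log2 levels, and ± gives the SD of 3 arrays. Between 67.2% and 69.3% of the 61657 probes that are not controls exceeded background clearly. All vehicle arrays lay on slide 1 with scan time 1 and all TCEP arrays on slide 2 with scan time 2, so slide, scan time and treatment cannot be told apart in any value below. In whole cortex, fewer cells of a type and less RNA per cell cannot be told apart either.

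Over the 4 weeks of TCEP no immediate early gene passed the test, and the widest spread of any member was that of Fos among the vehicle rats. Of the 26 tested genes 0 passed a Benjamini-Hochberg adjusted p of 0.05 in limma, as did 0 of all 11804 genes (0%). 3 of the 26 had an unadjusted p under 0.05 (Gadd45b and Atf3 lower, Dusp5 higher with TCEP), against 8.33% of all genes. Of the 983 genes behind that share 50.6% had the higher mean with TCEP, and 69.6% of 869 did without scaling between arrays. Means were lower with TCEP for 16 and higher for 10 of the 26, against 47.5% of all genes lower. The median difference was -0.18, against 0.01 over all genes tested. It was -0.05 without vehicle replicate 1 and -0.02 without TCEP replicate 3.

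The members varied more among rats of 1 group than most genes did. Their median SD within groups was 0.26, against 0.13 over all genes, and 13 of the 26 lay in the top 20% of genes by this SD. Egr1 stood highest, followed by Fos at percentile 98.8, Zfp36 at 96.5, Dusp6, Arc at 94.7 and Nr4a1 at 94.6. Junb (26.1) and Ier2 (16.0), genes of the same early wave, varied less than most genes.

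**Figure D2:**
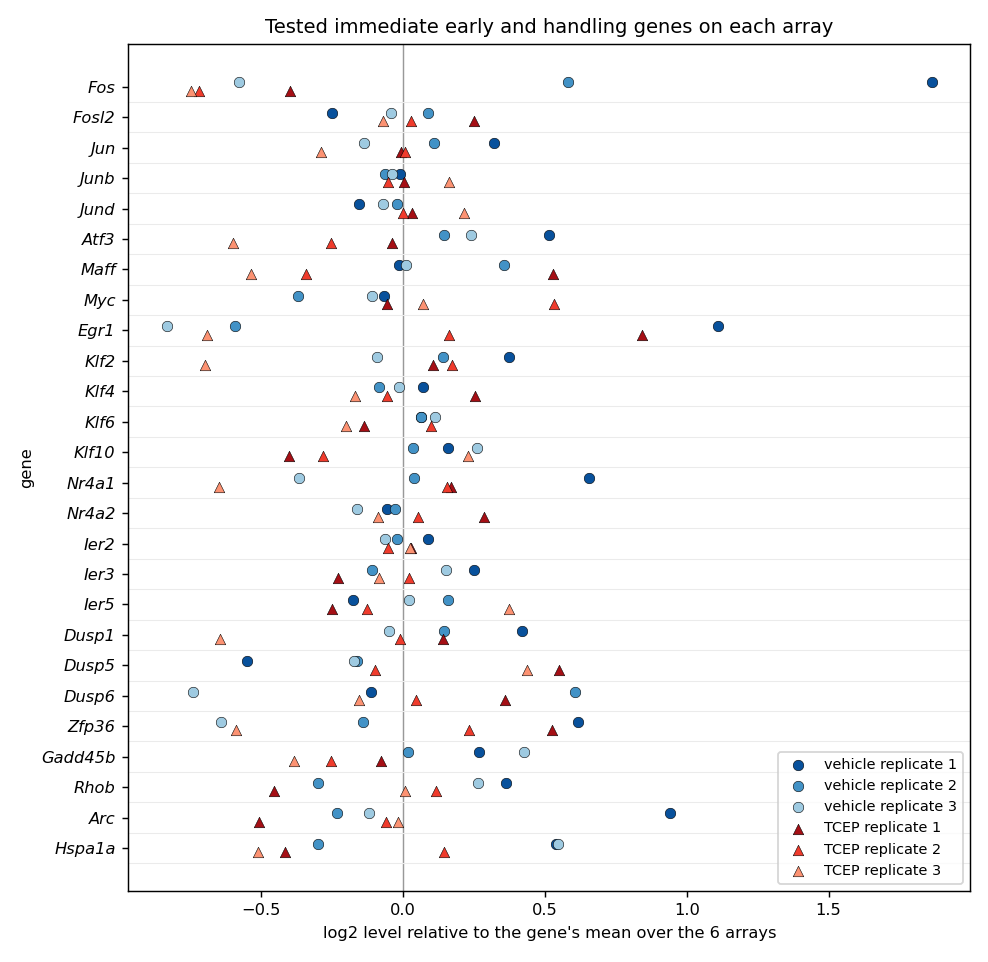
Log2 level of each of the 26 tested genes on each array relative to the gene's mean over the 6 arrays (circles are vehicle arrays and triangles TCEP arrays, shaded by replicate). Vehicle replicate 1 lies far to the right for Fos, Egr1 and Arc, and the 2 groups overlap for all genes but Atf3, Gadd45b, Dusp5, Myc and Jund.

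Fos, the founding member of the AP-1 family, was at -1.68, -2.96 and -4.12 on the vehicle arrays (replicates 1, 2 and 3) and at -3.94, -4.26 and -4.29 on the TCEP arrays. The vehicle rats thus spread over 5.44-fold and the TCEP rats over 1.27-fold, and the lowest vehicle rat lay inside the TCEP range. The Fos difference was -1.24 (SE 0.59, 95% confidence interval -2.69 to 0.20, limma adjusted p = 0.647), the largest among the members, and -0.62 without vehicle replicate 1. A further Fos probe gave the same picture, with a difference of -1.24 and r = 0.98 with the brighter one. Fosl2, a Fos relative that is also present in resting cells, lay between -3.09 and -2.75 on the vehicle and -2.90 and -2.58 on the TCEP arrays, with overlap. Fosl1 was not well above background on any array.

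Jun, the main partner of Fos, was at 3.66, 3.45 and 3.20 on the vehicle and 3.33, 3.35 and 3.05 on the TCEP arrays. Its highest array was vehicle replicate 1, as for Fos, and its difference was -0.19 (SE 0.14), or -0.08 without that array. Junb, a Jun family member that dampens Jun activity, differed by 0.08 (SE 0.08), with levels between 2.75 and 2.97 on all arrays. Jund, the Jun family member with steady expression, was at 4.22 to 4.35 on the vehicle and 4.38 to 4.59 on the TCEP arrays, without overlap (0.17, SE 0.08, unadjusted p = 0.0965, limma adjusted p = 0.657, and 0.10 without TCEP replicate 3). That separation was on the brightest Jund probe only. On its other detected probes the groups overlapped, with differences of 0.07 and 0.20.

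Egr1, a zinc finger factor driven by serum response factor, was at -1.78, -3.48 and -3.73 on the vehicle arrays and at -2.05, -2.73 and -3.58 on the TCEP arrays. Each group held both a rat with a high and a rat with a low level, and the difference of means was 0.21 (SE 0.62, 95% confidence interval -1.32 to 1.74). Its sign turned with the arrays kept, from 0.82 without vehicle replicate 1 to -0.16 without TCEP replicate 1. Egr2 was well above background on 2 vehicle arrays and 0 TCEP arrays, and Egr3 on 1 vehicle and 2 TCEP arrays, so neither was tested.

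Among the Kruppel-like factors Klf2, which is abundant in endothelium under flow, was at -0.90, -1.13 and -1.36 on the vehicle and -1.17, -1.10 and -1.97 on the TCEP arrays, with TCEP replicate 3 lowest. Its difference was -0.28 (SE 0.26), and -0.00162 without that array. Klf10, an early target of TGF-beta, differed by -0.30 (SE 0.18), with TCEP replicate 3 (1.82) inside the vehicle range of 1.63 to 1.85, and by -0.49 without that array. Klf6 differed by -0.16 (SE 0.09) and Klf4, an epithelial differentiation factor, by 0.02 (SE 0.12). By their brightest probes none of the 4 had groups that did not overlap. The other detected Klf6 probes, which are dimmer, each differed by -0.27, with every TCEP array below every vehicle array.

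Nr4a1, an orphan nuclear receptor, was at 1.57, 0.95 and 0.54 on the vehicle and 1.08, 1.06 and 0.26 on the TCEP arrays. Its difference of -0.22 (SE 0.33) was 0.06 without vehicle replicate 1 and 0.05 without TCEP replicate 3. Its relative Nr4a2 differed by 0.17 (SE 0.11), and Nr4a3 was not well above background on any array.

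The genes that end the response gave mixed values. Zfp36, which encodes an RNA-binding protein that triggers decay of AU-rich messages, was at -1.42, -2.17 and -2.67 on the vehicle and -1.51, -1.80 and -2.62 on the TCEP arrays, so that both groups ran over nearly the same range (difference 0.11, SE 0.41, and 0.45 without vehicle replicate 1 but -0.18 without vehicle replicate 3). Dusp1, a nuclear phosphatase of p38, JNK and ERK, was at -2.02, -2.30 and -2.50 on the vehicle and -2.30, -2.46 and -3.09 on the TCEP arrays. It differed by -0.34 (SE 0.23), and by -0.11 without TCEP replicate 3.

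Dusp5, a nuclear phosphatase specific to ERK, was at 0.89, 1.28 and 1.27 on the vehicle arrays and at 1.99, 1.34 and 1.88 on the TCEP arrays. Every TCEP array lay above every vehicle array, and the difference was 0.59 (SE 0.20, unadjusted p = 0.0271, limma adjusted p = 0.559). The cytoplasmic ERK phosphatase gene Dusp6 had its highest and lowest level in the vehicle group (4.41 and 3.06) and differed by 0.17 (SE 0.35). Of the immediate early response genes, Ier2 was level at 2.37 ± 0.08 and 2.37 ± 0.04 (95% confidence interval of the difference -0.17 to 0.17) and Ier5 at 1.91 ± 0.17 and 1.91 ± 0.33. Ier3, which opposes cell death, differed by -0.19 (SE 0.12).

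Atf3, a stress-induced factor of the ATF/CREB family and a marker of tubular injury, was at -0.41, -0.78 and -0.69 on the vehicle arrays and at -0.97, -1.18 and -1.52 on the TCEP arrays. All TCEP rats lay below all vehicle rats, at 0.661 of the vehicle level (difference -0.60, SE 0.17, unadjusted p = 0.0132, limma adjusted p = 0.535). Gadd45b, which activates stress kinases, was at 0.26, 0.01 and 0.42 on the vehicle and -0.08, -0.26 and -0.39 on the TCEP arrays, also without overlap (-0.48, SE 0.13, unadjusted p = 0.0121, limma adjusted p = 0.535).

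Myc, a driver of growth and division, was at -0.37, -0.67 and -0.41 on the vehicle and -0.35, 0.23 and -0.23 on the TCEP arrays, a narrow gap with no overlap (0.37, SE 0.17, limma adjusted p = 0.647). The difference was 0.19 without TCEP replicate 2. In all, 2 of the 26 genes had every TCEP array below every vehicle array, against 6.97% of all genes, and 3 had every TCEP array above, against 8.63%.

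Arc, best known from synapses, was at -0.42 on vehicle replicate 1 and between -1.87 and -1.38 on the other 5 arrays. Its difference of -0.39 (SE 0.34) was -0.02 without that array. Rhob, an early-induced small GTPase, differed by -0.22 (SE 0.23) and Maff, a small MAF protein, by -0.23 (SE 0.29), each with overlapping groups. Rhob was -0.05 without TCEP replicate 1, and Maff was -0.02 without TCEP replicate 3 and -0.56 without TCEP replicate 1. Hspa1a, an inducible HSP70 gene that responds to heat and misfolded protein, was at -1.73, -2.56 and -1.72 on the vehicle and -2.68, -2.12 and -2.78 on the TCEP arrays (-0.52, SE 0.29, and -0.81 without vehicle replicate 2). Hspa1a has a near-identical neighbour, Hspa1b, so its probe can take up signal from both. Hspa1b and Fosb had no named probe and are not analysed here.

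**Figure D3:**
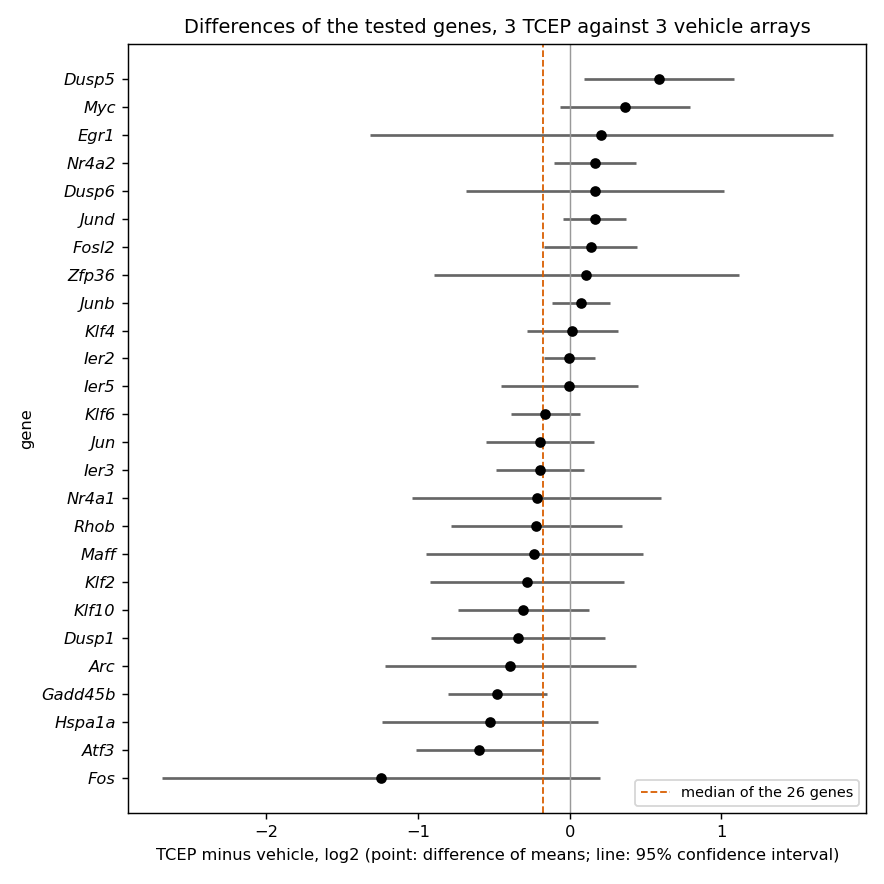
Difference between the means of 3 TCEP and 3 vehicle arrays (log2, points) with its 95% confidence interval (lines) for the 26 tested genes, sorted, with their median of -0.18 dashed. The intervals of Fos and Egr1 are the widest, and those of Atf3, Gadd45b and Dusp5 leave out 0 before adjustment.

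10 of the 26 genes had more than 1 detected probe. For 7 of these all probes had 1 sign. Probes disagreed for Junb (-0.14 to 0.08), Ier5 (-0.05 to 0.07) and Nr4a2 (-0.02 to 0.17), whose differences were small. Over the 6 arrays the lowest r of a further probe with the brightest one was -0.49 for Fosl2, 0.24 for Nr4a2, 0.46 for Jund and 0.55 for Junb. The correlations given here use the brightest probe. For the other 6 genes it was 0.76 or more. The 16 other genes, among them Egr1, Atf3, Gadd45b, Dusp5 and Arc, rest on 1 detected probe.

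Extremes of the members gathered on 2 arrays. Vehicle replicate 1 held the highest level of 12 of the 26 genes, against 15.6% of all genes, and TCEP replicate 3 the lowest level of 11, against 12.0% of all genes. These 2 arrays were singled out after their values were seen. Under the scaling alternatives and the other background correction the counts were 10 to 12 for vehicle replicate 1 and 9 to 11 for TCEP replicate 3. The mean of the members, each relative to its own mean, was 0.28, 0.00 and -0.08 on the vehicle and 0.04, -0.02 and -0.22 on the TCEP arrays, so that vehicle replicate 1 and TCEP replicate 3 lay at the ends and the other 4 arrays between them. Without Fos, Egr1 and Arc the ends were 0.14 and -0.18.

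The members did not move as 1 block. Over the 325 pairs of the 26 genes the median Pearson r over the 6 arrays was 0.11 and 57.8% were above 0, against 0.01 and 50.5% over all 69661306 pairs of tested genes. Without vehicle replicate 1 the median was 0.00107 and 50.2% were above 0. 9 pairs (2.77%) had r above 0.9, against 0.915% of all pairs, and these joined 9 genes into 2 groups. One held Dusp1, Egr1, Jun, Klf2, Nr4a1 and Zfp36, with vehicle replicate 1 highest for all 6 and TCEP replicate 3 lowest for 4. Its mean level was 0.58, -0.05 and -0.35 on the vehicle and 0.30, 0.12 and -0.59 on the TCEP arrays. The other held Hspa1a, Ier3 and Rhob, at 0.38, -0.24 and 0.32 on the vehicle and -0.37, 0.09 and -0.20 on the TCEP arrays. A gene needed only 1 such pair to join a group. Of the 15 pairs inside the group of 6 genes 7 had r above 0.9, and the lowest r was 0.65. Between the 2 groups the median r of the 18 pairs was 0.16. Pairs share the arrays, their scaling and the treatment difference, and the groups were formed from these correlations. 4 pairs had r below -0.9, against 0.831% of all pairs: Jund with Atf3 (-0.95), Klf10 with Nr4a2 (-0.93), Fosl2 with Arc (-0.91) and Jund with Dusp1 (-0.90). All 4 rest on the brightest probe of Jund, Nr4a2 or Fosl2. A further detected probe of the same gene had r as low as 0.46, 0.24 and -0.49 with it.

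**Figure D4:**
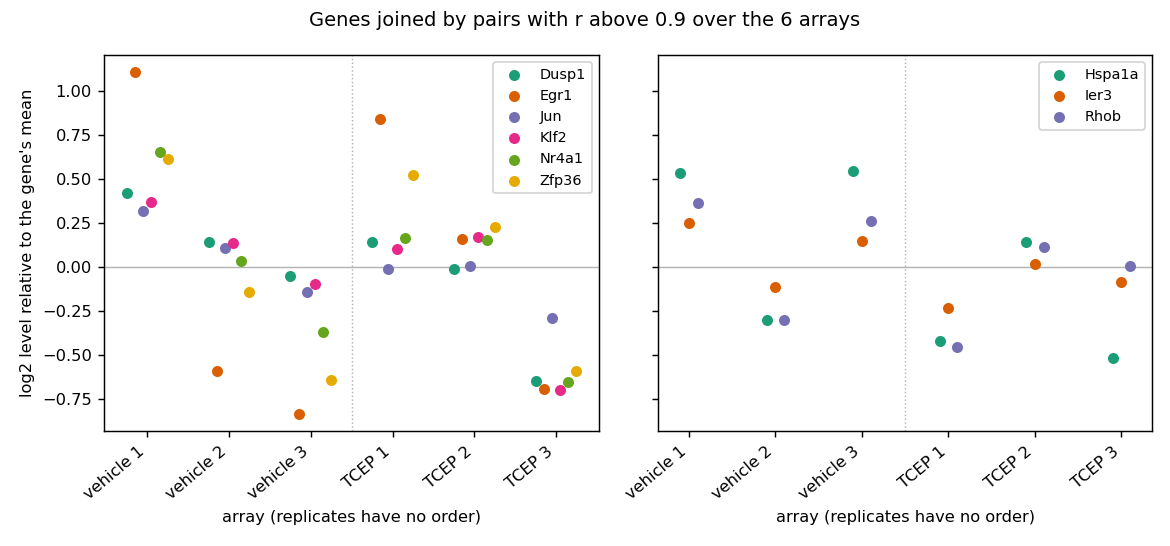
Log2 level relative to the gene's mean on each of the 6 arrays for the genes joined by pairs with r above 0.9 (left, 6 genes; right, 3 genes; colours are genes). On the left vehicle replicate 1 is highest for every gene, while on the right vehicle replicates 1 and 3 are high and vehicle replicate 2 and TCEP replicate 1 low for all 3 genes, with Hspa1a lowest on TCEP replicate 3.

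Egr1 and Zfp36 ranked the 6 arrays in the same order. Their r was 0.96 (exact two-sided permutation p = 0.0111) and their rho 1.00 (exact permutation p = 0.00278, the smallest that 720 orders allow for rho). The r was 0.92 without vehicle replicate 1 and TCEP replicate 1, the arrays farthest from the median of Egr1, and 0.96 within groups. The other tested genes with a CArG box matched in their window did not share this order: Dusp5 had r = -0.13 with Egr1 and -0.17 with Zfp36, and Klf6 -0.04 and 0.08. Dusp1 and Klf2 had r = 0.97 (exact permutation p = 0.00972, rho 0.83), but 0.54 without TCEP replicate 3 and vehicle replicate 1, so that this relation rested largely on those arrays. Ier3 and Rhob also ranked the 6 arrays in the same order (rho 1.00, exact permutation p = 0.00278). They had r = 0.95 (exact permutation p = 0.00417) and 0.88 without the 2 farthest arrays. Klf10 and Nr4a2 ranked the arrays in opposite order (r = -0.93, rho -1, and r = -0.88 without TCEP replicates 1 and 2), with the smallest exact permutation p of any pair, 0.00139. That order belongs to the brightest Nr4a2 probe, with which a further detected Nr4a2 probe had r of only 0.24. Whether the relation holds on the further probes was not tested. After Benjamini-Hochberg adjustment over the 325 pairs the smallest p was 0.310 for r, and 0 pairs passed 0.05, while 32 pairs had an unadjusted exact permutation p under 0.05.

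Fos shared its order only in part. Its r was above 0 with 18 of the other 25 members, against 50.2% of all 11803 other genes (median 0.32, against 0.00). The r was highest with Jun, at 0.88 (exact permutation p = 0.00833, rho 0.83, adjusted p = 0.208 over the 25). That r was 0.49 without vehicle replicates 1 and 2, the arrays farthest from the median of Fos. By rank Dusp1 was closest to Fos, with rho 0.94 (exact permutation p = 0.0167, adjusted p = 0.417). Its r was 0.72, and 0.71 without those 2 arrays. With Egr1 the r was 0.52 (exact permutation p = 0.293, adjusted p = 0.575, rho 0.60). TCEP replicate 1 was high for Egr1 (-2.05) and low for Fos (-3.94), and the r was 0.82 within groups and 0.61 without the 2 farthest arrays. Dusp5 (-0.69) and Jund (-0.68) ran most opposite to Fos. Without the 2 farthest arrays the r was 0.36 for Dusp5 and -0.43 for Jund, and within groups -0.39 for each. None of the 25 passed after adjustment.

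**Figure D5:**
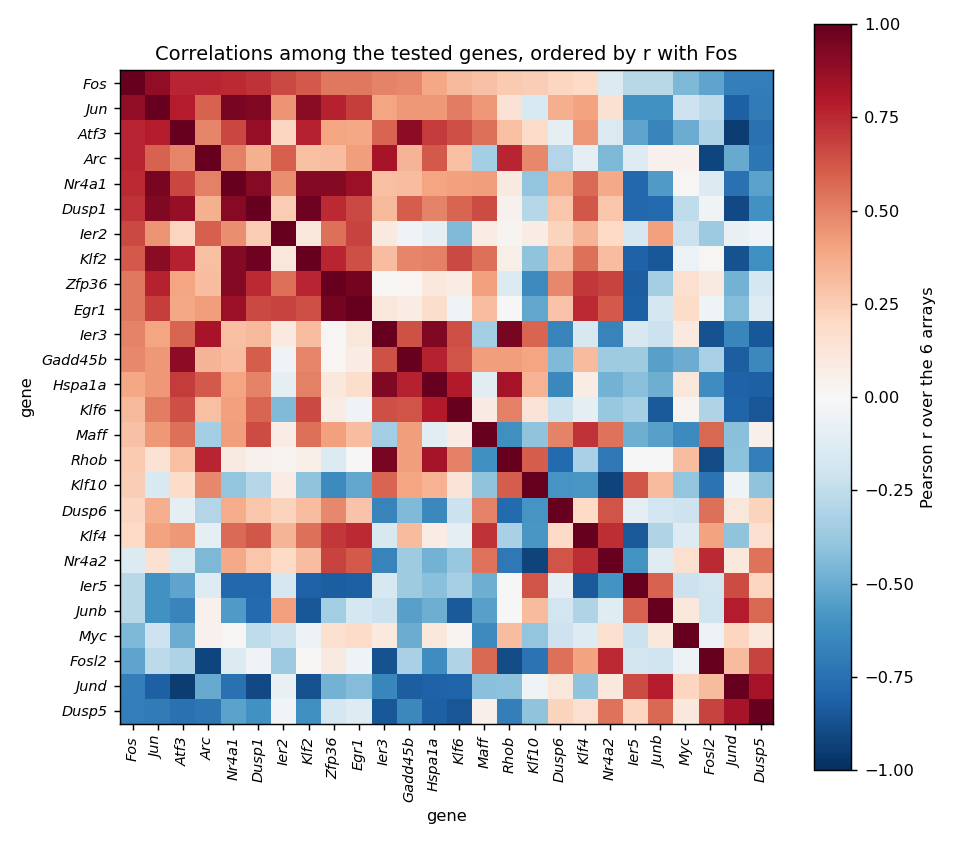
Pearson r over the 6 arrays between each pair of the 26 tested genes (red above 0, blue below 0), ordered by r with Fos. Jun, Nr4a1, Dusp1, Klf2, Zfp36 and Egr1 form the darkest red area, and Jund and Dusp5 are blue against the genes nearest Fos.

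Outside the list, the 5 tested genes with the highest r with Fos over the 6 arrays were Or6z1 (0.99), Pak6 (0.99), Chchd6 (0.97), Mob1b (0.97) and Bmp2 (0.97). Without vehicle replicates 1 and 2 their r was at most 0.72 (Pak6) and was 0.01 for Chchd6. Their differences between the groups were small, from -0.24 for Chchd6 to -0.10 for Mob1b. Or6z1 is an odorant receptor gene and Bmp2 a ligand of the TGF-beta family.

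Genes around these pathways gave no call either. Of 43 tested among 48 feedback regulators, parallel targets and upstream factors, 18 had higher and 25 lower means with TCEP (median -0.08), or 41.9% higher against 52.5% of all genes. 0 passed, and 3 (6.98%) had an unadjusted p under 0.05, below the 8.33% of all genes. They were Dusp4, an ERK phosphatase gene, at 0.51 (SE 0.18), Elk3, a partner of serum response factor, at 0.28 (SE 0.11) and Hbegf, an EGF receptor ligand, at -0.29 (SE 0.11). Spred1, an inhibitor of the RAS pathway, differed by -0.29 (SE 0.14). Of the 43 genes 2 (Dusp4 and Elk3) had every TCEP array above every vehicle array, against 8.63% of all genes. For 1 every TCEP array lay below, against 6.97%. The Dusp4 difference was -0.12 with another background correction. Vehicle replicate 1 was highest for 12 of the 43 genes (27.9%, against 15.6% of all).

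Of 20 tested among 21 heat shock genes, 10 had higher and 10 lower means (median 0.01), 0 passed and 3 (against 8.33% of all genes) had an unadjusted p under 0.05. Hsp90ab1, the constitutive HSP90 gene, was at 5.51, 5.63 and 5.71 on the vehicle and 5.29, 5.29 and 5.25 on the TCEP arrays, without overlap (-0.34, SE 0.07, limma adjusted p = 0.533). The inducible Hsp90aa1 differed by -0.23 (SE 0.09) and Hspa4l, an HSP110 family gene, by 0.42 (SE 0.14), each also without overlap. Of the 20 genes 2 had every TCEP array below every vehicle array, against 6.97% of all genes. For 1 every TCEP array lay above, against 8.63%. Cryab, a small heat shock protein gene, was at 3.75, 5.44 and 3.76 on the vehicle and 7.77, 6.34 and 5.26 on the TCEP arrays. Its groups overlapped by 1 array each, and the difference was 2.14 (SE 0.76, 95% confidence interval 0.29 to 3.99, limma adjusted p = 0.561). The heat shock genes had their highest level on vehicle replicate 3 in 13 of 20 cases, against 16.3% of all genes, and on vehicle replicate 1 in 1.

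The cell makeup of the samples was read from marker lists, in which 0 genes passed. The 6 proximal tubule markers were all tested, and their summed linear level relative to the 75th percentile was 915 to 1000 on the vehicle and 878 to 1078 on the TCEP arrays. Vehicle replicate 1, the array with the most Fos, had the highest summed level of distal tubule (3 of 3 tested), endothelial (4 of 4) and smooth muscle markers (3 of 3), at 31.3, 36.5 and 3.02. The ranges were 18.4 to 31.3 on the vehicle and 17.0 to 19.7 on the TCEP arrays for distal tubule, 30.3 to 36.5 and 27.3 to 35.2 for endothelium, and 2.36 to 3.02 and 2.26 to 2.92 for smooth muscle. Collecting duct markers (5 of 5, 139.2 to 207.6 and 146.9 to 153.2) were highest on vehicle replicate 3, macrophage markers (4 of 4, 11.9 to 17.9 and 12.0 to 13.6) on vehicle replicate 2, podocyte markers (4 of 4, 23.9 to 30.5 and 22.8 to 31.2) on TCEP replicate 3 and thick ascending limb markers (2 of 3, with Slc12a1 not tested, 406.1 to 555.0 and 424.6 to 582.3) on TCEP replicate 1. All 3 distal tubule markers had lower means with TCEP (median -0.42, 2 at an unadjusted p under 0.05), as did all 5 collecting duct markers (median -0.29, 3 at an unadjusted p under 0.05). The mean of the distal tubule markers, each relative to its own mean, was 0.46, -0.13 and 0.34 on the vehicle and -0.27, -0.23 and -0.17 on the TCEP arrays, without overlap. By this mean the highest array differed from that of the summed level for 2 lists. Podocyte markers were highest on vehicle replicate 1 (0.25, against 0.09 on TCEP replicate 3). Thick ascending limb markers were highest on vehicle replicate 2 (0.17, against 0.13 on TCEP replicate 1). All 4 podocyte markers (median -0.27), 4 macrophage markers (median -0.11) and 3 smooth muscle markers (median -0.08) also had lower means, with 0 at an unadjusted p under 0.05. So did all 4 tested neutrophil and erythroid markers, with the lowest median of any list (-0.62, 0 at an unadjusted p under 0.05). Proximal tubule markers were higher for 4 and lower for 2, and thick ascending limb markers higher for 1 and lower for 1. Each of these 2 lists had 1 marker at an unadjusted p under 0.05. Neutrophil and erythroid markers (4 of 6 tested, with Mpo and Hba1 not tested, 172.8 to 269.3 and 177.7 to 202.2) and lymphocyte markers (3 of 5, 0.844 to 1.46 and 0.899 to 1.12) were highest on vehicle replicate 2. Fat markers (3 of 4), adrenal markers (1 of 3, with Cyp11b1 and Star not tested) and inner medulla markers (2 of 2, 0.540 to 0.730 and 0.524 to 0.737) overlapped between the groups. The part of cell makeup in the members' levels was not tested.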

How the data were processed

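Total RNA of 6 renal cortices was measured on 1-colour (Cy3) arrays, 3 vehicle and 3 TCEP, grouped by the sample titles, and the series' design text calls the samples biological replicates. The authors read the scans with Agilent Feature Extraction 10.7.1.1, per the file headers (10.7 per the submitters' processing notes). Their processed signal is an intensity, already background-subtracted and detrended, and their flags for background, outliers and saturation are other values of 0 or 1 in the deposited files. The authors' deposited series matrix holds that signal divided by 1 constant per array, within 0.15% of the array's 75th percentile, with column medians of 0.104 to 0.107, linear and not centred. The array design is annotated on build rn4, per the file headers, and none of its coordinates are used.

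12 outlier probes were left out. Probes were named by accession, without versions, through the RefSeq table of GRCr8: 27453 of 61645 (44.5%) matched, for 15284 genes. The log2 processed signal minus the array's log2 75th percentile was fitted by lmFit and eBayes of limma (version 3.58.1, under R 4.3.3), with two-sided p adjusted after Benjamini-Hochberg over 11804 genes. Correlations used exact permutation of the 720 orders of 6 arrays (Python 3.11.15, numpy 2.4.6, pandas 2.3.3). The fit and the permutation test were tested on simulated data. The number of arrays limits the precision. Named were all members, the 8 further or heat shock genes with the smallest p, and the 5 genes most like Fos. The members and lists were chosen with earlier results of these data known. Alternatives were no scaling, quantile normalization, normexp (offset 50), the mean over probes and the series matrix. Further ones were no filter, a filter on all 6 arrays, a replicate block, within-group correlations and leaving out each array. Normexp used median spot signals, the planned fallback, because mean signals were not among the values at hand.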

Additional observations from a re-analysis of the deposited data

How the results depend on the processing

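No member passed the adjusted threshold under any of the 14 alternatives of the fit, and the smallest adjusted p of a named gene was 0.266. Over all genes 0 passed, except that Dio2, noted after its value was seen, was called without TCEP replicate 3 (a count of 1, difference 2.79, limma adjusted p = 0.0432). Genes at an unadjusted p under 0.05 numbered 1568 with normexp, against 983, and 702 to 1011 when 1 array was left out, and members 2 to 5, against 3 (2 without vehicle replicate 1, 5 without vehicle replicate 2 and 5 without vehicle replicate 3). The median r over pairs was 0.22 without scaling and 0.00107 to 0.19 when 1 array was left out, lowest without vehicle replicate 1. 17 of the 26 members kept their sign under all of these alternatives (12 lower and 5 higher). Signs turned for Ier2 (0.0414 without scaling, 0.18 with normexp), Ier5 (0.0392 without scaling, 0.00519 with the mean over probes), Junb (-0.0312 with that mean), Maff (0.0891 with that mean) and Dusp4 (-0.12 with normexp). The causes were not tested. When 1 array was left out, differences ran from -0.16 to 0.82 for Egr1, -0.0333 to 0.0431 for Ier2, -0.19 to 0.12 for Ier5, -0.16 to 0.51 for Dusp6, -0.10 to 0.11 for Klf4, -0.46 to 0.0574 for Nr4a1 and -0.18 to 0.45 for Zfp36. The deviations of same-numbered arrays from their group means had r of -0.15, -0.10 and 0.23. With 3 arrays per group and no reference value for paired rats, these cannot tell whether the numbers pair the rats. The sample titles do not say. With the replicate number as a block 0 genes passed, and 850 genes and 4 members had an unadjusted p under 0.05. Dim probes such as those of Egr2, Egr3, Fosl1 and Nr4a3 carry signal too close to background to compare.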
